A study of Mus musculus with 16 samples.

Results

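The unfolded protein response of the endoplasmic reticulum (ER) was followed in mouse BCR-ABL1p185+ leukemic cell lines through 32 genes, out of 50686 genes in the count files. The members were taken from a list of ER chaperones, ER-associated degradation factors and stress sensors. Each of the 32 symbols matched 1 gene, and all 32 passed the filter on low counts in every comparison. By role they comprised 8 chaperones, 5 protein disulfide isomerases, 3 J-domain cochaperones, 8 genes of ER-associated degradation, 4 sensor and transcription factor genes and 4 genes of the translocon and ER membrane.

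The lines came from C57BL/6N bone marrow transformed with a retrovirus that encodes the BCR-ABL1p185 oncoprotein, the fusion tyrosine kinase of Philadelphia chromosome-positive acute lymphoblastic leukemia. The 4 wild-type lines correspond to the floxed Cdk8fl/fl controls of the study, and the 4 Cdk8-ko lines (Cdk8∆/∆) had lost Cdk8, the kinase of the Mediator complex, through a Vav-Cre transgene that is active in blood-forming cells. Each line was cultured for 48 h with 0.01% DMSO or with 1 µM Senexin B, an inhibitor of the CDK8 and CDK19 kinases, which gave 16 RNA-seq libraries in 4 groups of 4. The comparisons asked whether loss of the protein and inhibition of its kinase activity changed the expression of these genes. Whether each line came from a different mouse was not given in the sources used here. Between genotypes the p-values measure the spread between these lines, and in paired Senexin B tests the spread of differences within lines. The unpaired Senexin B and interaction fits treat libraries of the same line as independent.

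Secretory and membrane proteins fold in the ER, where Hspa5 (BiP), Hsp90b1 (GRP94) and the calnexin and calreticulin lectins bind nascent chains and the protein disulfide isomerases form and rearrange disulfide bonds. When unfolded proteins accumulate, the membrane sensors IRE1 (Ern1), PERK (Eif2ak3) and ATF6 (Atf6) are released from BiP. IRE1 splices the Xbp1 mRNA, PERK phosphorylates eIF2α and so favours translation of Atf4, and cleaved ATF6 enters the nucleus, and together they raise chaperones, folding enzymes and the machinery that extracts misfolded proteins for degradation. The pathway is best known in the B lineage for the secretory expansion of plasma cells, and IRE1 and XBP1 also act in early B-cell development.

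Between 13145876 and 18349425 reads were counted per library (median 15473664.5). Levels are given as counts per 1000000 of the scaled library total (CPM). The pro-B markers Pax5, Ebf1, Cd79a and Igll1 were detected in all 16 libraries. Their ranges were 786 to 1616, 695 to 1286, 318 to 1163 and 624 to 1887 CPM. Myeloid, T-cell and stromal markers summed to 24.8 CPM or less, erythroid markers to between 3.65 and 264 CPM, and the defining genes Cd3g, Elane and S100a8 were at 0. Of the 10 mature B and plasma cell markers, 8 exceeded 1 CPM, and their sum ran from 827 to 974 CPM in wild-type DMSO, 712 to 1288 in wild-type Senexin B, 837 to 1205 in Cdk8-ko DMSO and 765 to 1610 in Cdk8-ko Senexin B. These sums overlap. Of the pro-B and the mature B and plasma cell markers described, Rag1, a subunit of the V(D)J recombinase, separated the genotypes in DMSO, at 1.61 to 3.86 CPM in wild-type and 9.27 to 77.9 CPM in Cdk8-ko lines. Irf4, a transcription factor of late B-cell stages, was higher with Senexin B in all 4 wild-type lines (median 348 CPM in DMSO and 475 with Senexin B), and the median of Igll1 there was 943 and 1504 CPM. Cd79b was lower with Senexin B in all 4 lines of either genotype. The part of these markers in the results below was not tested. In bulk RNA, fewer cells of a type and less RNA per cell cannot be told apart.

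Cdk8 itself was counted over all its exons, so transcripts without the deleted part are included and the check of the labels is limited. Its level in wild-type DMSO lines 1 to 4 was 68.7, 61.8, 63.3 and 65.8 CPM, and in Cdk8-ko DMSO lines 35.3, 52.1, 47.1 and 42.8 CPM. The DMSO groups did not overlap. With Senexin B the wild-type lines had 89.4, 56.3, 56.8 and 55.2 CPM and the Cdk8-ko lines 43.9, 61.7, 42.9 and 41.2 CPM, so Cdk8-ko line 2 lay above wild-type lines 2 to 4. Wild-type line 1 stood apart from the other wild-type lines in its response to Senexin B, and the main counts and medians are therefore also given without its libraries. The line was singled out after its values were seen, so counts and medians without it are not separate support.

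Promoter sequences are shown for 5 members because their letters mark the response elements by which the pathway is known. RefSeq windows of 300 bases, from 250 before to 50 after the start (GRCm38.p6), were found for 27 of the 32 members. They were searched on both strands for the ER stress response element ERSE (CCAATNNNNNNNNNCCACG, bound by ATF6 with NF-Y), for ERSE-II (ATTGG and CCACG with any 1 base between them) and for the XBP1 core motif TGACGTG. No occurrence of these motifs overlapped another. The stretches below are the 250 bases before the start, 5′ to 3′ on the strand of the gene, with motif matches on either strand in capitals: Hspa5 at chr2:34771840-34772089 (plus strand), Hsp90b1 at chr10:86705445-86705694 (minus), Calr at chr8:84846932-84847181 (minus), Derl3 at chr10:75893148-75893397 (plus) and Herpud1 at chr8:94386179-94386428 (plus).
Hspa5: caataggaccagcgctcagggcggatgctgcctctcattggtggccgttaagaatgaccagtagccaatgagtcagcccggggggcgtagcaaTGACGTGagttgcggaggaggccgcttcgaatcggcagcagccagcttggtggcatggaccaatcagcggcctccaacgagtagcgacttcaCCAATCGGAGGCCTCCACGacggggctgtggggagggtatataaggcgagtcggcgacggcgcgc
Hsp90b1: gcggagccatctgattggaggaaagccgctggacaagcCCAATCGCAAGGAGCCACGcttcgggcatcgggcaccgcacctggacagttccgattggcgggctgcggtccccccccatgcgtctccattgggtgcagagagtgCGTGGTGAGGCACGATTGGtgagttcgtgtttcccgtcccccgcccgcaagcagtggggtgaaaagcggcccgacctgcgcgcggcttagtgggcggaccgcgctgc
Calr: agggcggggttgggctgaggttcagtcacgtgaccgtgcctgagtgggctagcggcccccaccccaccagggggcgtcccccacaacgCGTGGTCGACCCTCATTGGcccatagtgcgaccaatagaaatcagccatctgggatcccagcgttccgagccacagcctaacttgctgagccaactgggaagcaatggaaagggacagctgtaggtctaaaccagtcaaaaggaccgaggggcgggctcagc
Derl3: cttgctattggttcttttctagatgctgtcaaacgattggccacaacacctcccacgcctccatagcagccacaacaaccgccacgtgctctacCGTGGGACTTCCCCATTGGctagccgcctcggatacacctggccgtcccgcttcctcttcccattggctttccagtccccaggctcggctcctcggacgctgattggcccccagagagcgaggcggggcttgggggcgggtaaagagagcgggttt
Herpud1: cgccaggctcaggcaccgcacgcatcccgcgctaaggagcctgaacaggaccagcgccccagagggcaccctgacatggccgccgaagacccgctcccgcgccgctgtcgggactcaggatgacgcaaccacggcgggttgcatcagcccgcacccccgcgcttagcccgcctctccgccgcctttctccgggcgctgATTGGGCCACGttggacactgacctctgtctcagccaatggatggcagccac

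An ERSE stood in the windows of 9 of the 27 members (33.3%), namely Calr, Canx, Creld2, Derl3, Dnajc3, Hsp90b1, Hspa5, Pdia6 and Syvn1, against 37 of all 27025 genes with a window (0.137%). In Hspa5 it lay 65 to 47 bases before the start, and the XBP1 core 157 to 151 bases before it. Hsp90b1 carried an ERSE on each strand, 212 to 194 and 107 to 89 bases before the start. ERSE-II stood in Herpud1 and Dnajb11, 2 of 27 members (7.41%) against 0.0444% of all genes, and the XBP1 core in Hspa5 alone (3.7% against 2.22%). These are matches of letters, and binding was not measured. The 18 members without an ERSE in the window include Sdf2l1, Pdia3, Pdia4 and Xbp1.

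Per exon length, the members covered a wide range of expression. The RPKM, which is the CPM divided by the exon length in kilobases, averaged over the 16 libraries, ran from 329 ± 78.7 (SD, n = 16) for Herpud1, an ER membrane protein that recruits ubiquitin ligases, to 1.00 ± 0.859 for Wfs1 (wolframin, an ER membrane glycoprotein). Calr (172 ± 70.3 RPKM), Canx (129 ± 23.7), Syvn1 (114 ± 18.3), Xbp1 (111 ± 19.9) and P4hb (107 ± 12.99) followed Herpud1. From Canx to P4hb the neighbouring means differed by less than their SD. Hspa5, at 82.4 ± 32.02 RPKM, ranked the ninth and stood above 96.2% of the 14164 genes tested over the 16 libraries. The sensors were far lower, with Atf6 at 19.3 ± 5.98, Ern1 at 7.12 ± 4.45 and Eif2ak3 at 6.25 ± 1.34 RPKM. Derl3 (3.85 ± 3.48), Pdia5 (1.16 ± 1.31) and Wfs1 were the only members below 5 RPKM, and Pdia5 had 0 reads in Cdk8-ko line 4 under either treatment.

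**Figure D1:**
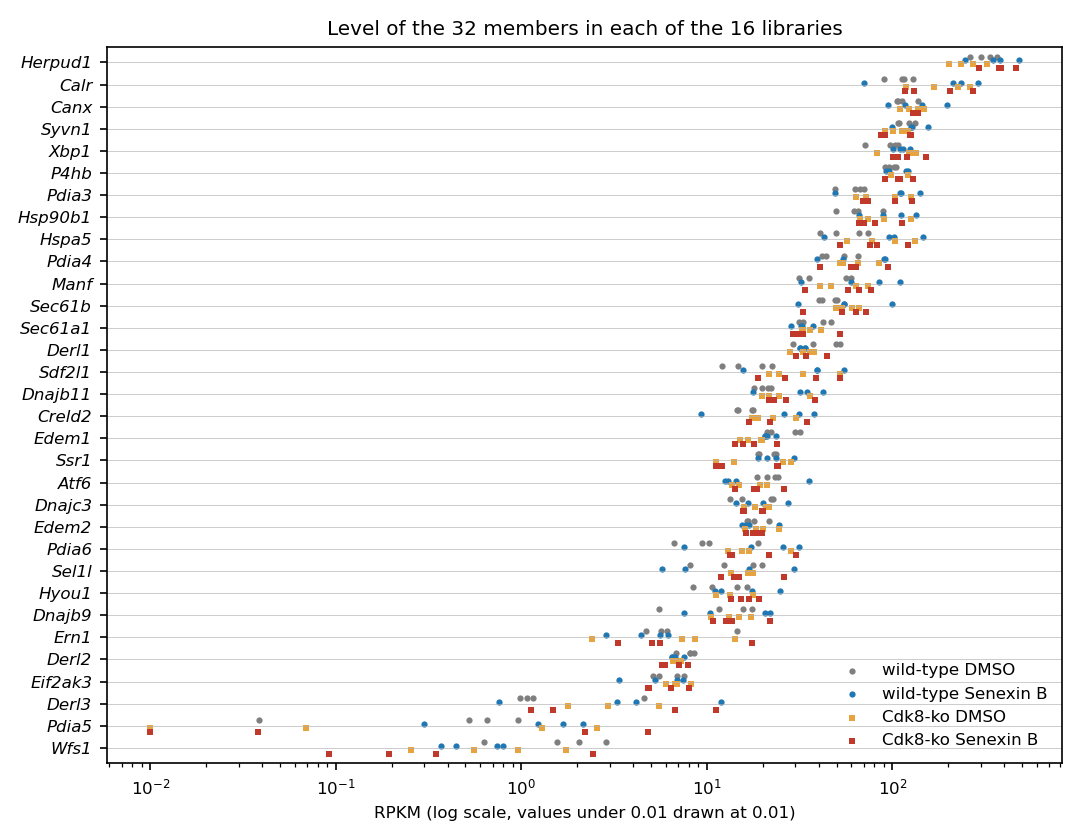
Level of each member in each library in RPKM on a log axis, members ordered by their mean over the 16 libraries, with 1 point per library and colour and shape for the group. Herpud1 lies highest at a mean of 329 RPKM and Wfs1 lowest at 1.00 RPKM, and Derl3, Pdia5 and Wfs1 spread the widest.

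More of the spread lay between lines than within them. For the median member, 62.7% of the squared deviations of log2(CPM + 1) lay between the 8 lines, against 72.3% for the median of all 14164 genes. This share includes the genotype difference, and part of it would lie between lines without any line effect. Ssr1, a subunit of the translocon-associated complex, was the most line-bound (94.9%), with 104 to 264 CPM among the Cdk8-ko DMSO lines and a difference of at most 0.32 on the log2(CPM + 1) scale within any line. Atf6 was the least so (25.7%). Reads over exon bases shared with another gene model could not be assigned by strand, which concerns 15.7% of the Hsp90b1 and 9.25% of the Manf exon bases. The steadiest member was P4hb, the canonical protein disulfide isomerase, whose highest library was 1.43 times its lowest, and the most variable with reads in every library was Wfs1, at 31.1 times.

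In DMSO, 23 of the 32 members had a higher mean in the Cdk8-ko lines than in the wild-type lines, but none passed the limits of an adjusted p under 0.05 and a change over 2-fold by edgeR, and DESeq2 called 0 members. Among all 13174 genes tested, 1 passed (0.00759%). The members' median log2 fold change was 0.17, against 0.00 for all genes. Leaving out 1 library gave medians from 0.16 to 0.33, the highest without wild-type line 2 and 0.18 without wild-type line 1. At an unadjusted p under 0.05 stood 7 of the 32 members, 6 higher and 1 lower, where 5.32% of all genes did. The positive values lay mostly among the folding genes. All 8 chaperones (median 0.45), all 5 disulfide isomerases (0.56) and all 3 J-domain cochaperones (0.16) had positive values, whereas 5 of 8 genes of ER-associated degradation and 3 of 4 translocon and membrane genes had negative ones. Without the wild-type line 1 library 15 of the 16 folding genes were positive, and the chaperone median was 0.51. Without Cdk8-ko line 4 it was 0.25, the lowest with any single library left out.

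Hspa5 (chromosome 2, 34771970 to 34777547, GRCm38), the chaperone that holds the sensors inactive, had 209, 314, 278 and 173 CPM in wild-type DMSO lines 1 to 4 and 437, 329, 240 and 558 CPM in the Cdk8-ko lines. Cdk8-ko lines 1, 2 and 4 exceeded every wild-type line, and line 3 lay within the wild-type range. The log2 fold change was 0.69 ± 0.288 (SE, n = 4 and 4, edgeR quasi-likelihood, Benjamini-Hochberg adjusted p = 0.897).

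Calr (calreticulin, chromosome 8, 84841850 to 84846934), a lectin chaperone of glycoproteins that also buffers calcium, had 333, 373, 326 and 259 CPM in wild-type DMSO and 650, 480, 343 and 755 CPM in Cdk8-ko DMSO. Only Cdk8-ko line 3 lay within the wild-type range. The log2 fold change was 0.79 ± 0.245 (edgeR, adjusted p = 0.897). Sdf2l1, which works with ERdj3 and BiP to keep clients from aggregating, showed 16.3, 21.9, 24.9 and 13.4 CPM in wild-type and 27.1, 36.3, 23.8 and 57.7 CPM in Cdk8-ko DMSO lines, a log2 fold change of 0.93 ± 0.32 (edgeR, adjusted p = 0.897). Sec61b, the β subunit of the translocation channel, had 52.8, 63.8, 62.0 and 51.4 against 63.3, 68.1, 77.04 and 83.7 CPM (0.35 ± 0.133, edgeR, adjusted p = 0.897). In each of these genes a single Cdk8-ko line reached into the wild-type range.

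Edem1 (chromosome 6, 108828641 to 108859356), which hands mannose-trimmed glycoproteins to degradation, went the other way. The wild-type DMSO lines had 143, 205, 137 and 193 CPM and the Cdk8-ko DMSO lines 127, 127, 97.7 and 107 CPM, and the groups did not overlap. Of the 32 members it was the 1 with lower, non-overlapping values in the Cdk8-ko lines, a pattern held by 1.66% of all genes, and 0 members had higher, non-overlapping values (1.48% of all genes). The exact two-sided permutation test gave p = 0.0286, the smallest that 4 against 4 lines allows, and the log2 fold change was -0.56 ± 0.167 (edgeR, adjusted p = 0.897).

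Between genotypes with Senexin B, 12 of 32 members were higher in the Cdk8-ko lines, and the median log2 fold change was -0.04. No member and no other gene of 13010 passed the limits by edgeR (0%), 0 members reached an unadjusted p under 0.05 (all genes 1.55%, 202 genes), and DESeq2 called 0 members as well. No member separated the groups, either higher (0.546% of all genes) or lower (0.453%) in the Cdk8-ko lines. All 8 chaperones had negative values (median -0.19, the lowest -0.29), where all 8 had been positive in DMSO. These values turned on single libraries. Without wild-type line 1 the members' median was -0.20 and that of the chaperones -0.44, all 8 again negative. Without wild-type line 3 the members' median was 0.05 and 6 of the 8 chaperones were positive (median 0.07), and without Cdk8-ko line 2 the members' median was 0.02 with 2 chaperones positive. With library totals as the only scaling, the members' median was 0.01 and 16 of 32 were higher. The Senexin B and DMSO comparisons rest on different libraries of the same lines.

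The smallest p-values in that comparison belonged to Edem1, Ern1, Ssr1 and Syvn1. Edem1 had 136, 132, 132 and 153 CPM in the wild-type and 154, 91.3, 101 and 115 CPM in the Cdk8-ko lines with Senexin B (-0.26 ± 0.184, edgeR, adjusted p = 0.9997). Cdk8-ko line 1 was the highest of the 8 and the other three Cdk8-ko lines were the lowest. Ern1 differed by 0.74 ± 0.518 (edgeR, adjusted p = 0.9997), and by -0.01 without the Senexin B library of Cdk8-ko line 1. Ssr1 had 195, 174, 273 and 219 CPM in wild-type and 224, 112, 105 and 223 CPM in Cdk8-ko lines (-0.38 ± 0.297, edgeR, adjusted p = 0.9997). Syvn1, the HRD1 ubiquitin ligase of ER-associated degradation, had 610, 742, 476 and 598 against 413, 433, 596 and 598 CPM (-0.25 ± 0.208, edgeR, adjusted p = 0.9997). For both genes the ranges overlapped.

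**Figure D2:**
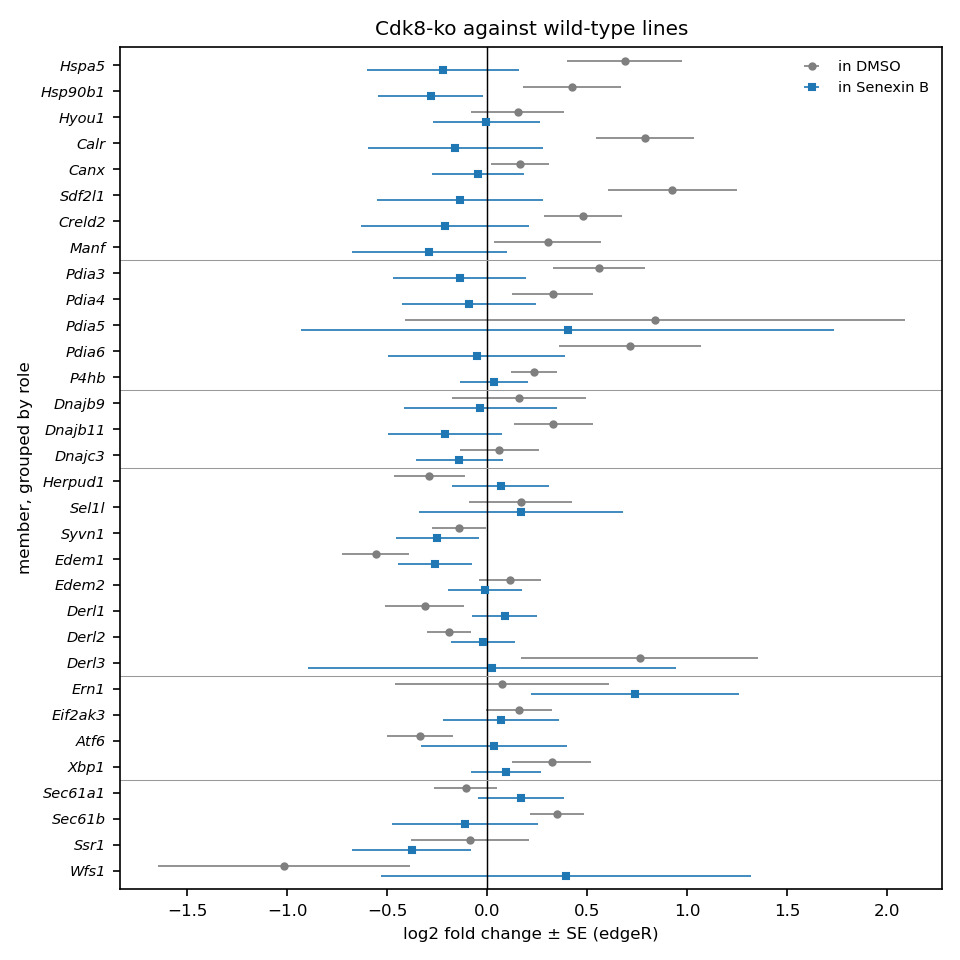
Log2 fold change (± SE, edgeR) of Cdk8-ko against wild-type lines for each member, grouped by role, with circles for DMSO and squares for Senexin B (n = 4 lines per genotype). The 16 folding genes at the top lie above 0 in DMSO and 14 of them lie below 0 with Senexin B, and no value passed the limits.

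Senexin B in the wild-type lines gave the highest medians of the folding genes. In the comparison without pairing, 24 of 32 members had a positive log2 fold change, among them all 8 chaperones (median 0.68), all 5 disulfide isomerases (0.74) and all 3 J-domain cochaperones (0.28), and the members' median was 0.26 against 0.02 for all genes. With library totals as the only scaling, the median of all genes moved to -0.08 and the members' median to 0.17. No member and no gene of 12989 passed the limits by edgeR (0%), with 6 members (5 higher, 1 lower) at an unadjusted p under 0.05 against 3.8% of all genes, and DESeq2 called 0 members. The mitochondrial share of the counts was higher with Senexin B in all 4 wild-type lines, going from 7.92 to 10.4%, 6.58 to 10.1%, 6.75 to 7.21% and 8.01 to 9.01% in lines 1 to 4. Lines 3 and 4, with the highest medians of the folding genes, had the smallest of these differences, and line 1 one of the largest. In the Cdk8-ko lines the share went from 8.86 to 8.32%, 8.37 to 12.3%, 8.81 to 7.42% and 7.30 to 7.79%, higher in lines 2 and 4. Its part in the values was not tested.

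The DMSO and Senexin B libraries that share a number come from the same line, so the line was also entered as a block. Then 45 of 12989 genes passed (0.346%), none of them a member. At an unadjusted p under 0.05 stood 10 members, 8 higher and 2 lower, where 10.3% of all genes did. Higher in all 4 wild-type lines were 4 members (Manf, Pdia5, Sdf2l1 and Xbp1), against 8.38% of all genes, and lower in all 4 were Edem1 and Ern1, against 9.46%.

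Sdf2l1 went from 16.3 to 17.4 CPM in line 1, from 21.9 to 43.6 in line 2, from 24.9 to 60.8 in line 3 and from 13.4 to 43.5 in line 4. Its level was thus about the same in line 1 and higher with Senexin B in lines 2 to 4. The log2 fold change was 1.12 ± 0.366 without pairing (edgeR, adjusted p = 0.9998) and 1.04 ± 0.249 with the line as a block (edgeR, adjusted p = 0.174).

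Hspa5 went from 209 to 182 CPM in line 1, and from 314 to 404, 278 to 616 and 173 to 433 CPM in lines 2 to 4 (0.67 ± 0.259 with the block, edgeR, adjusted p = 0.411). Calr went from 333 down to 203 CPM in line 1, and from 373 to 612, 326 to 831 and 259 to 676 CPM in lines 2 to 4. Pdia3, the glycoprotein-specific disulfide isomerase that partners with calreticulin, had the same pattern, from 209 to 154 CPM in line 1 and from 221 to 348, 197 to 443 and 154 to 345 CPM in the others (0.74 ± 0.295 without pairing, edgeR, adjusted p = 0.9998). In each of these genes line 1 was lower with Senexin B and lines 2 to 4 were higher.

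Dnajb11 (ERdj3), a cochaperone that feeds unfolded clients to BiP, was level in line 1 (57.8 and 57.5 CPM) and went from 72.0 to 112, 69.4 to 137 and 63.9 to 103 CPM in lines 2 to 4 (0.59 ± 0.183 with the block, edgeR, adjusted p = 0.302). Pdia5, a member of the protein disulfide isomerase family, was at the bottom of the range, with 1.73, 0.944, 1.18 and 0.07 CPM in DMSO and 3.02, 2.21, 3.91 and 0.539 CPM with Senexin B (1.38 ± 0.336, edgeR with the block, adjusted p = 0.18). Derl3, the derlin that is enriched in secretory cells, had 1.97, 9.13, 2.15 and 2.31 CPM in DMSO and 1.51, 23.7, 6.53 and 8.24 CPM with Senexin B (1.20 ± 0.349, edgeR with the block, adjusted p = 0.274). Both genes were higher with Senexin B in lines 2 to 4, and line 1 was higher for Pdia5 and lower for Derl3.

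Pdia6, a further isomerase, had 38.3, 70.6, 25.0 and 35.4 CPM in DMSO and 28.2, 117, 64.9 and 95.9 CPM with Senexin B, and again line 1 alone was lower. Wfs1 had the lowest fold change. It went from 2.37 to 3.02 CPM in line 1, but from 10.8 to 2.78, 5.9 to 1.39 and 7.77 to 1.69 CPM in lines 2 to 4 (-1.49 ± 0.432, edgeR with the block, adjusted p = 0.275). Herpud1 went from 858 to 1116, 610 to 812 and 779 to 885 CPM in lines 1, 2 and 4 and from 703 to 572 CPM in line 3, the line in which Hspa5 and Calr reached their highest values.

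**Figure D3:**
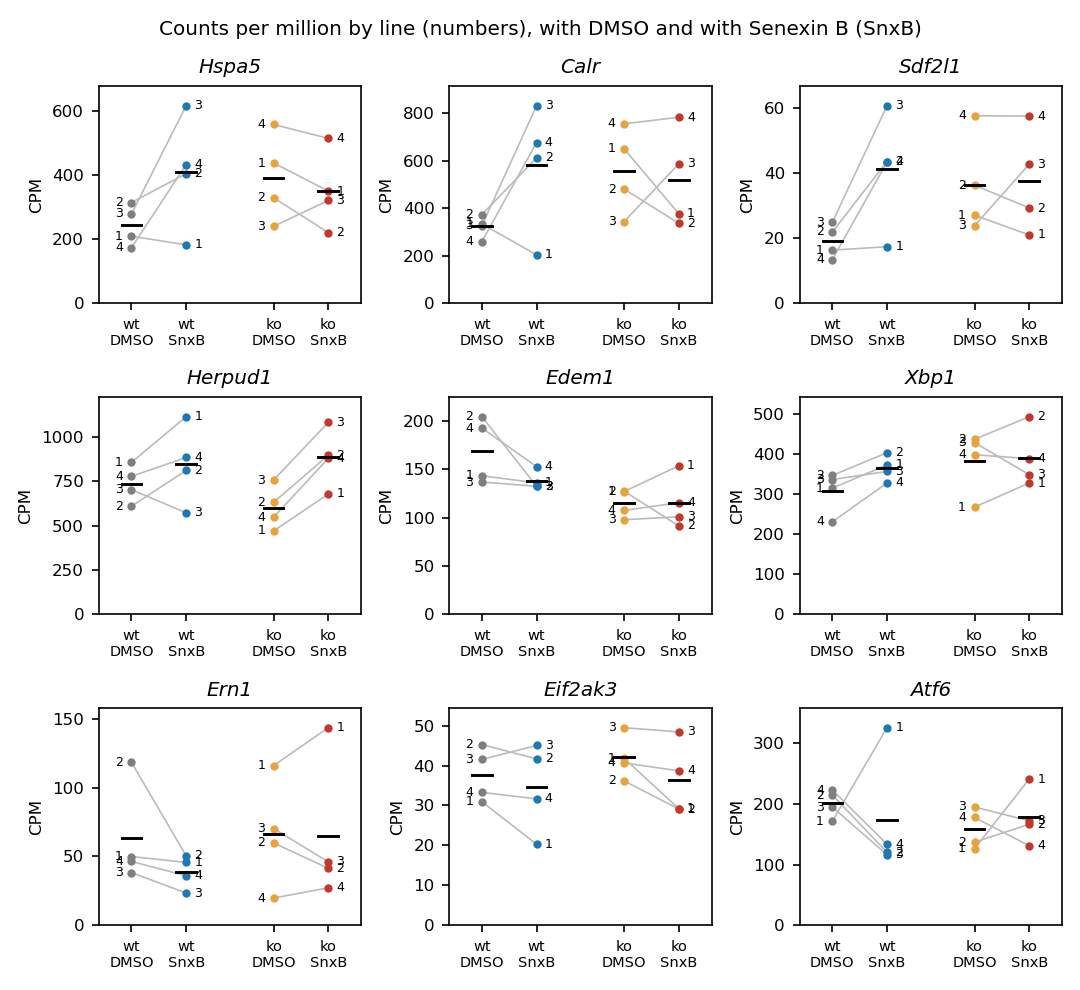
CPM of 9 members by line (numbers beside the points), with grey lines joining the DMSO and Senexin B (SnxB) libraries of a line and black bars at the group mean, n = 4 lines per group (wt, wild-type lines and ko, Cdk8-ko lines). Hspa5 and Calr were higher with Senexin B in wild-type lines 2 to 4 and lower in line 1, and Atf6 was higher in wild-type line 1 and lower in the other three.

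Calls among the members appeared when wild-type line 1 was left out, with the line as a block. In lines 2 to 4, 538 of 12976 genes passed the limits (4.15%), and with them 6 of the 32 members (18.8%). Higher with Senexin B were Derl3 (1.58 ± 0.217, adjusted p = 0.00227), Sdf2l1 (1.32 ± 0.181, adjusted p = 0.00227), Pdia6 (1.18 ± 0.187, adjusted p = 0.005), Calr (1.15 ± 0.193, adjusted p = 0.00675) and Pdia5 (1.61 ± 0.365, adjusted p = 0.025), and lower was Wfs1 (-2.07 ± 0.242, adjusted p = 0.00111), all by edgeR with Benjamini-Hochberg adjustment. At an adjusted p under 0.05 with any fold stood 14 members (43.8%), against 7.82% of all genes, with Creld2, Pdia3, Dnajb11, Hsp90b1, Manf and Hspa5 (0.95 ± 0.211, adjusted p = 0.0236) higher and Ern1 and Atf6 lower. All 16 folding genes had positive values, with a median of 0.84. Leaving out line 2, 3 or 4 in place of line 1 gave 0, 9 and 28 genes past the limits and 0 members each time, with all 16 folding genes positive and medians of 0.60, 0.43 and 0.44. The calls hold for lines 2 to 4 alone, and line 1 was singled out after its values were seen.

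**Figure D4:**
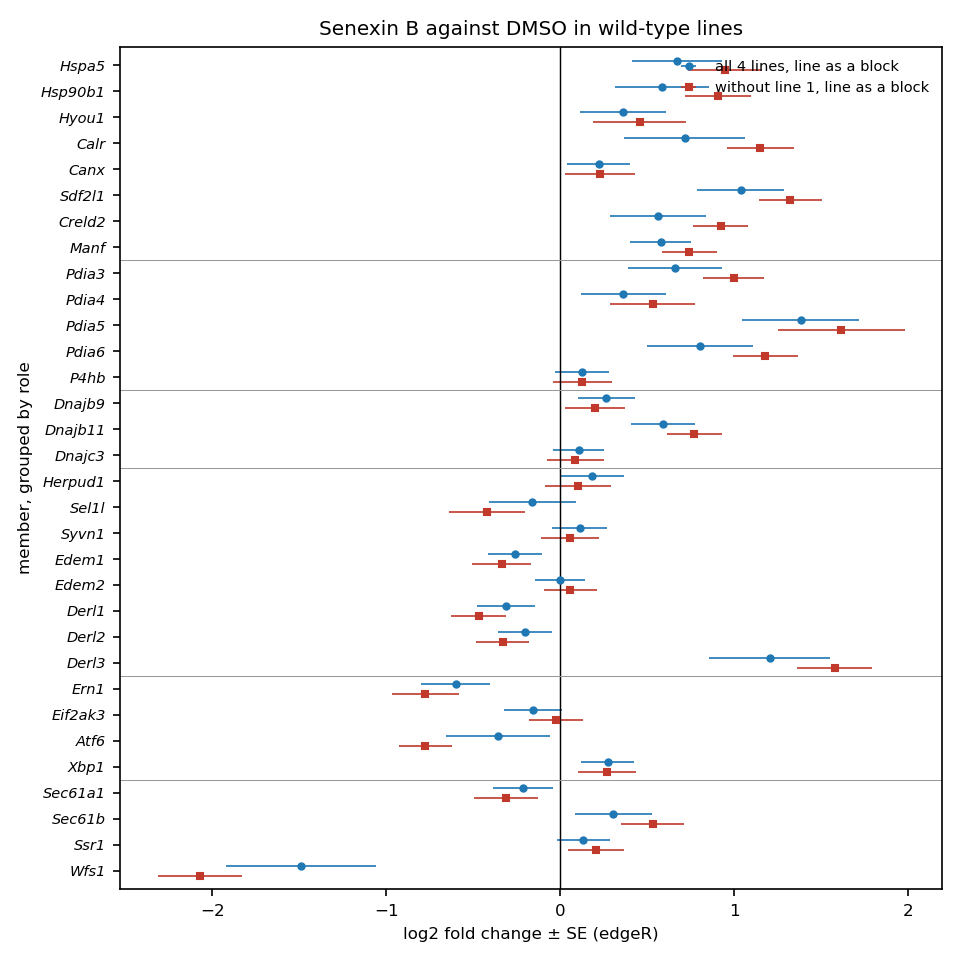
Log2 fold change (± SE, edgeR with the line as a block) of Senexin B against DMSO in wild-type lines, with circles for all 4 lines and squares for lines 2 to 4. The folding genes lie above 0 in both fits, and without line 1 Calr, Sdf2l1, Pdia5, Pdia6 and Derl3 exceeded 1 and Wfs1 lay at -2.07, all of which passed the limits.

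In the Cdk8-ko lines the folding genes had medians near 0 with Senexin B. The members' median log2 fold change was 0.02 (all genes 0.01), with 20 of 32 positive without pairing and 15 of 32 with the block. With 1 library left out it ran from -0.09 to 0.10, and it was negative without DMSO line 2, DMSO line 3 or Senexin B line 4. The chaperones had a median of 0.03, the disulfide isomerases 0.03 and the J-domain cochaperones 0.08. No member and no other gene of 13285 passed without pairing (edgeR, 0%), and with the block 7 genes did (0.0527%), none a member, and DESeq2 called 0 members. A single member, Herpud1, reached an unadjusted p under 0.05 in either fit, against 1.83% of all genes without pairing and 10.3% with the block. Higher in all 4 lines were Herpud1 and Hyou1 (8.89% of all genes) and lower in all 4 were Dnajc3 and Eif2ak3 (10.3%).

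Herpud1 (chromosome 8, 94386438 to 94395377) was higher with Senexin B in every Cdk8-ko line, from 470 to 679, 632 to 899, 758 to 1085 and 548 to 881 CPM. The log2 differences were 0.53, 0.51, 0.52 and 0.68, so the lines differed little. Its log2 fold change was 0.56 ± 0.198 without pairing and 0.56 ± 0.0963 with the block (edgeR, adjusted p = 0.137). An exact sign-flip test over 4 lines cannot go below 0.125, which is the value it gave.

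Hyou1 (GRP170), a large chaperone that exchanges the nucleotide of BiP, went from 96.0 to 123, 96.7 to 97.2, 80.9 to 111 and 128 to 138 CPM in the Cdk8-ko lines (0.23 ± 0.104 with the block, edgeR, adjusted p = 0.505). Derl3 had differences of either sign, from 5.86 to 2.24 and 5.83 to 2.96 CPM in lines 1 and 2, and from 3.56 to 13.4 and 11.0 to 22.2 CPM in lines 3 and 4. Wfs1 went from 6.55 to 9.20 CPM in line 1 and from 3.63 to 1.31, 2.10 to 0.728 and 0.957 to 0.348 CPM in lines 2 to 4 (-0.73 ± 0.402 with the block, edgeR, adjusted p = 0.587). In both genotypes, then, line 1 alone had more Wfs1 with Senexin B. Hspa5 had 437, 329, 240 and 558 CPM in DMSO and 350, 220, 320 and 514 CPM with Senexin B, lower in 3 of 4 lines (-0.15 ± 0.161 with the block, edgeR, adjusted p = 0.79).

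Line by line, the 16 folding genes gave different counts. With Senexin B, 8 of 16 were higher in wild-type line 1, 11 in line 2, all 16 in line 3 and 15 in line 4, with medians of 0.01, 0.54, 1.02 and 0.92 on the log2(CPM + 1) scale. Among Cdk8-ko lines 1 to 4, 3, 4, 14 and 10 of the 16 were higher, with medians of -0.18, -0.17, 0.36 and 0.04. Between 46.8% and 51.3% of the 14164 genes were higher in each of the 8 lines. The folding genes were lowest in wild-type DMSO line 4 (median deviation -0.66 from their means over the 16 libraries) and highest in wild-type Senexin B line 3 (0.73).

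**Figure D5:**
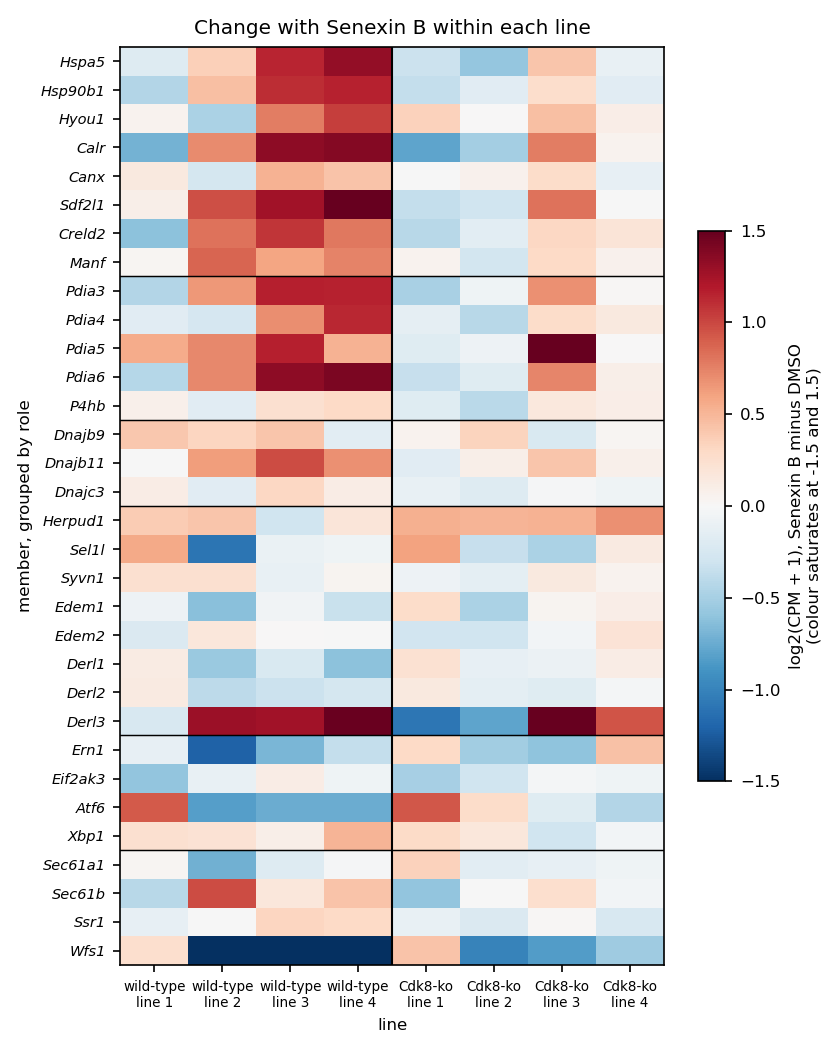
Difference in log2(CPM + 1) between the Senexin B and DMSO libraries of each line, members grouped by role (black lines) and colour saturating at -1.5 and 1.5. All 16 folding genes were higher in wild-type line 3 and 15 in line 4, against 3 and 4 in Cdk8-ko lines 1 and 2, and Herpud1 was higher in all lines but wild-type line 3.

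Over the 8 lines together, Senexin B gave a member median of 0.16 (all genes 0.01), with 22 of 32 positive. No member and no other gene of 14164 passed by edgeR without pairing (0%), with 1 member at an unadjusted p under 0.05 against 4.86% of all genes (688 genes), and DESeq2 called 0 members. With the line as a block, 134 genes passed (0.946%) and 0 members, and 6 members stood at an unadjusted p under 0.05 against 16.4% of all genes. Herpud1 was higher in 7 of 8 lines (0.37 ± 0.107, edgeR with the block, adjusted p = 0.105), and its exact sign-flip p was 0.0234, where 8 lines allow 0.00781. Wfs1 was lower in 6 of 8 lines (-1.17 ± 0.339, edgeR with the block, adjusted p = 0.0997), and Pdia5 had 1.09 ± 0.314 (edgeR with the block, adjusted p = 0.106). Dnajb11 (0.34 ± 0.126, adjusted p = 0.195) and Sdf2l1 (0.53 ± 0.231, adjusted p = 0.284) had smaller values in the same edgeR fit, and Derl3 had 0.71 ± 0.39 (adjusted p = 0.407). Wfs1 passed the limits when wild-type line 1 (-1.41, adjusted p = 0.0449) or Cdk8-ko line 1 (-1.49, adjusted p = 0.0211) was left out of the edgeR fit. Pdia5 passed when Cdk8-ko line 1 was left out (1.44, edgeR, adjusted p = 0.0228). Leaving out lines was added after the data were seen. The share of all genes called in these fits is not given, so these calls cannot be set against it. Per library, Wfs1 had 5 to 172 reads and Pdia5 had 0 to 144.

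The response to Senexin B was lower in the Cdk8-ko than in the wild-type lines for 23 of 32 members, with a median difference of -0.20 on the log2 scale, but the interaction passed for no member and no gene of 14164 by edgeR (0%) or DESeq2. Without pairing 0 members and 0.473% of all genes (67 genes) had an unadjusted p under 0.05, and with the line as a block 3 members did against 3.24%. These were Sdf2l1 (-0.99 ± 0.358), Manf (-0.53 ± 0.211), a secreted factor that binds BiP, and Hspa5 (-0.81 ± 0.34), each with an adjusted p of 0.991 by edgeR. Without wild-type line 1, 15 members had an unadjusted p under 0.05 against 13.1% of all genes, and still 0 passed, the lowest adjusted p being 0.163. A difference between the genotypes in their response is therefore not shown at these numbers of lines. The genotype comparison in DMSO and the Senexin B comparison in wild-type lines share the 4 wild-type DMSO libraries, which held the lowest mean of the 4 groups for 15 of the 16 folding genes, and so their values cannot be read as separate evidence.

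The 3 sensors had negative log2 fold changes with Senexin B in the wild-type lines, where the chaperones were positive. Ern1 (IRE1, chromosome 11, 106394650 to 106487852) had 49.8, 118, 38.2 and 46.3 CPM in wild-type DMSO and lower levels with Senexin B in every wild-type line, at 45.6, 50.4, 23.3 and 35.9 CPM (-0.60 ± 0.199 with the block, edgeR, adjusted p = 0.337). In the Cdk8-ko lines it went from 116 to 144, 59.8 to 41.3, 70.2 to 45.9 and 19.7 to 27.1 CPM. The Cdk8-ko lines thus spanned 19.7 to 116 CPM in DMSO, and the treatment had no common direction in them.

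Atf6 (chromosome 1, 170704674 to 170867771) had 172, 215, 195 and 223 CPM in wild-type DMSO and 326, 120, 116 and 133 CPM with Senexin B. Line 1 was higher with Senexin B by 0.92 on the log2(CPM + 1) scale, and the differences in lines 2 to 4 were -0.83, -0.74 and -0.74. The Cdk8-ko lines had 126, 137, 195 and 178 CPM in DMSO and 241, 166, 172 and 131 CPM with Senexin B, and again line 1 had the largest difference. The fold change in wild-type lines was -0.36 ± 0.299 with the block over 4 lines (edgeR, adjusted p = 0.756) and -0.78 ± 0.152 without line 1 (edgeR, adjusted p = 0.0131). Line 1, the wild-type line of opposite sign, was left out after its values were seen, so the second p-value is not separate support.

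Eif2ak3 (PERK, chromosome 6, 70844515 to 70905245) was the steadiest of the sensors. Its wild-type lines had 30.9, 45.3, 41.5 and 33.3 CPM in DMSO and 20.2, 41.7, 45.0 and 31.6 CPM with Senexin B. In the Cdk8-ko lines it went from 41.8 to 29.2, 36.1 to 29.1, 49.5 to 48.4 and 40.6 to 38.7 CPM, lower in every line (-0.23 ± 0.118 with the block, edgeR, adjusted p = 0.549). Of its exon bases, 8.05% are shared with another gene model, and reads there could not be assigned to strand.

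Xbp1 (chromosome 11, 5520659 to 5525893), whose mRNA IRE1 splices, had 314, 346, 335 and 230 CPM in wild-type DMSO and 372, 402, 356 and 327 CPM with Senexin B, higher in every line by 0.08 to 0.50 on the log2(CPM + 1) scale. The exact sign-flip test gave p = 0.125, the smallest that 4 lines allow. In the Cdk8-ko lines Xbp1 went from 267 to 327 and 436 to 492 CPM in lines 1 and 2, and from 428 to 348 and 397 to 388 CPM in lines 3 and 4. Gene counts do not tell spliced from unspliced Xbp1, so IRE1 activity cannot be read from them.

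The members with an ERSE in the promoter window differed in sign between comparisons. With Senexin B in the wild-type lines all 9 had a positive log2 fold change (median 0.71, from 0.11 to 1.37), and of the 18 members with a window but no ERSE 13 did (median 0.18). Without line 1, with the line as a block, the medians were 0.92 and 0.16. Between genotypes in DMSO, 8 of 9 members with an ERSE and 13 of 18 without it were higher in the Cdk8-ko lines (medians 0.48 and 0.16). Between genotypes with Senexin B, 1 of 9 and 8 of 18 were (medians -0.16 and -0.02, and -0.34 and -0.05 without wild-type line 1). With Senexin B in the Cdk8-ko lines the medians were 0.01 and 0.00, and for the interaction 0 of 9 and 6 of 18 were positive (medians -0.70 and -0.19). Apart from Derl3 and Syvn1, the 9 members with an ERSE are folding genes, so motif and role cannot be told apart here. Among folding genes with a window but no ERSE, Pdia5 (1.30), Sdf2l1 (1.12) and Pdia3 (0.74) exceeded the median of 0.71 with Senexin B in the wild-type lines. Dnajb11 (0.65), Pdia4 (0.43), Dnajb9 (0.28) and P4hb (0.13) lay below it.

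Beyond the members, 84 further genes of the pathway were listed, of which 80 or 81 were tested in each comparison, and none passed the limits in any comparison with or without the block. Their median log2 fold changes between genotypes were near 0 in DMSO (-0.09) and with Senexin B (-0.02). With Senexin B the medians were -0.002 in wild-type lines, 40 genes higher and 40 lower, and 0.05 in Cdk8-ko lines. Of the 17 further folding genes tested, 9 were higher and 8 lower with Senexin B in wild-type lines (median 0.06). Between genotypes in DMSO, 8 of them were higher and 9 lower in the Cdk8-ko lines (median -0.07). Most of the 12 genes of the PERK arm had the opposite sign to the chaperones in 3 of these comparisons. Each genotype comparison shares wild-type libraries with the Senexin B comparison in wild-type lines, so these signs are not separate evidence. In DMSO 11 of 12 were lower in the Cdk8-ko lines (median -0.46, and -0.62 without wild-type line 1), while Eif2s1, which encodes eIF2α, was higher. In wild-type lines 11 of 12 were lower with Senexin B (median -0.28, and -0.64 with the block and without line 1). Leaving out wild-type DMSO line 4 brought these medians to -0.30 and -0.13. Between genotypes with Senexin B 9 of 12 were higher in the Cdk8-ko lines (median 0.18), 10 without wild-type line 1 (median 0.46) and 4 without Cdk8-ko line 1 (median -0.13). With Senexin B in the Cdk8-ko lines 9 of 12 were higher (median 0.20), the sign that the chaperone median of 0.03 also had, and 4 were without the Senexin B library of line 1 (median -0.07).

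Ddit3 (CHOP), the transcription factor downstream of ATF4, had the lowest fold change of the 12 genes between genotypes in DMSO. It had 162, 175, 184 and 354 CPM in wild-type DMSO lines and 75.3, 89.0, 98.3 and 31.9 CPM in Cdk8-ko DMSO lines (-1.57 ± 0.387, edgeR, adjusted p = 0.897). The groups did not overlap, and 1.66% of all genes were lower without overlap in the Cdk8-ko DMSO lines. With Senexin B, Ddit3 stood at 528 CPM in wild-type line 1 and at 55.8, 35.8 and 61.4 CPM in lines 2 to 4. The Cdk8-ko lines had 299, 134, 60.7 and 34.7 CPM with Senexin B, so line 1 was the highest in both genotypes. Trib3, a pseudokinase induced by CHOP and ATF4, had the lowest fold change with Senexin B in the wild-type lines. It went from 83.8 to 186 CPM in wild-type line 1 and from 149 to 27.0, 157 to 17.99 and 348 to 67.0 CPM in lines 2 to 4 (-1.85 ± 0.712, edgeR with the block, adjusted p = 0.44). Of the 12 genes, 11 were higher with Senexin B in wild-type line 1 and 2, 2 and 1 in lines 2 to 4, while in Cdk8-ko lines 1 to 4 10, 8, 1 and 5 were. The 3 lines with most of the PERK arm genes higher were also the 3 with the lowest medians of the folding genes. A link between these values was not tested, and PERK activity was not measured.

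Rpn1 and Rpn2, subunits of the oligosaccharyltransferase that N-glycosylates nascent chains, had values in the direction of the chaperones. They are named for their small p-values. Of the 19 genes of translocation and glycosylation tested, 10 were higher and 9 lower in Cdk8-ko DMSO (median 0.01). With Senexin B in wild-type lines 15 were higher and 4 lower (median 0.14). Rpn1 had 166, 170, 212 and 174 CPM in wild-type DMSO, 258, 276, 199 and 278 CPM in Cdk8-ko DMSO (0.49 ± 0.145, edgeR, adjusted p = 0.897) and 186, 229, 342 and 258 CPM in wild-type Senexin B, higher in every wild-type line. Rpn2 was higher with Senexin B over the 8 lines by 0.25 ± 0.0749 (edgeR with the block, adjusted p = 0.113). Mbtps2, a protease that cleaves ATF6, had a lower mean in Cdk8-ko DMSO lines (-0.47 ± 0.171 on the log2 scale, edgeR, adjusted p = 0.897), and its partner Mbtps1 was higher in Cdk8-ko lines with Senexin B (0.36 ± 0.125, edgeR, adjusted p = 0.9997). Of 12 tested heat shock genes of the cytosol and mitochondria, listed for comparison, 9 were higher in Cdk8-ko DMSO (median 0.18, and 0.30 without wild-type line 1). With Senexin B in wild-type lines 9 of 11 were higher (median 0.21, and 0.24 with the block and without line 1). Hspe1, which encodes a mitochondrial chaperonin, and Hsph1 had the smallest p-values there (edgeR, adjusted p = 0.9998 for both), and none of these genes passed.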

How the data were processed

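The deposited files hold counts, that is whole numbers of reads per gene made by the authors with featureCounts on the GENCODE M13 gene models of GRCm38, after trimming with Trimmomatic and alignment with STAR. Reads were counted without a strand option and not for bases shared by several genes. The headers of 15 of the 16 files name a modified annotation folder, but the gene models were identical in all files. Totals of 13145876 to 18349425 counts per library set the counting precision, and weakly expressed members such as Pdia5 and Wfs1 rest on few reads.

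From these counts, CPM and RPKM (by exon length) were computed on TMM-scaled totals of the genes kept by filterByExpr over the 16 libraries. Groups were compared in edgeR 4.0.16 (R 4.3.3) with filterByExpr, TMM scaling and the quasi-likelihood test. Each fit used the libraries of the groups compared, or all 16 libraries for the Senexin B effect over the 8 lines and for the interaction. A gene was called at a Benjamini-Hochberg adjusted p under 0.05 over all genes tested and a change over 2-fold. Values of single genes within lines are log2(CPM + 1), tested by exact two-sided permutation or sign-flip tests. The pipeline was tested on simulated data. Libraries with the same number and genotype deviated together from their group means (mean r = 0.774 over 8 pairs, lowest 0.5865). Those with the same number and different genotype had a mean r of 0.0318, from -0.204 to 0.4154. Within a genotype a number thus stands for a line, cultured with and without Senexin B. The fit with the line as a block was therefore run beside the unpaired one for Senexin B.

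The members and all gene lists were chosen with earlier results of these data known. Named with their values were Hspa5, the sensors and Xbp1, the 4 members with the smallest p in each comparison (also with the block in Senexin B comparisons), members called or not overlapping between genotypes, and the 3 further pathway genes with the smallest p, of which examples are given. Alternatives were RLE and total-count scaling, other filters, limits and library sets, DESeq2 1.42.0, and leaving out libraries or, added after seeing the data, whole lines. Some marker values are not reported here.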

Additional observations from a re-analysis of the deposited data

Results flagged for a closer look

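In 8 of 128 groups of 4 lines (6.25%), 1 line lay far from the other three in the level of a member, by the ratio of its gap to the range of the group. Chance flags about 1 in 20 groups. The P4hb level of 280.5 CPM in Cdk8-ko DMSO line 3 lay below the others (345 to 347 CPM). Edem2, a mannosidase-like degradation factor, stood at 84.3 CPM in wild-type Senexin B line 2, against 53.4 to 58.3 CPM. In wild-type DMSO line 2, Derl3 was at 9.13 CPM against 1.97 to 2.31 CPM, and Ern1 at 118 CPM against 38.2 to 49.8 CPM. Atf6 was at 326 CPM in wild-type Senexin B line 1, against 116 to 133 CPM. The remaining ones belong to Cdk8-ko Senexin B line 1, in which Ern1 was at 144 CPM (others 27.1 to 45.9), Sec61a1, the channel subunit of the translocon, at 353 CPM (others 197 to 222) and Wfs1 at 9.20 CPM (others 0.348 to 1.31).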

How the results depend on the processing

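No member was called under any other setting that kept every line, namely the replicate block, DESeq2, other scalings and filters, other limits, other sets of libraries and leaving out single libraries. With the replicate block 0 members were called in each of the 6 comparisons, while the calls among all genes went from 0 to 45 with Senexin B in wild-type lines, from 0 to 7 in Cdk8-ko lines, from 0 to 134 over the 8 lines and from 1 to 0 between genotypes in DMSO. Between genotypes the block is only a shared number, so that fit does not pair libraries of the same line. Libraries of different genotype with the same number had a mean r of 0.0318, from -0.204 to 0.4154, the highest for number 4. DESeq2 called 32, 10, 20, 0, 17 and 0 genes in the 2 genotype comparisons, the Senexin B comparisons in wild-type, Cdk8-ko and all 8 lines, and the interaction. Leaving out whole lines, chosen after seeing the data, gave 0 to 6 called members in wild-type lines, the 6 beside 4.15% of all genes. Over the 8 lines it gave 0 to 2, with 2 without Cdk8-ko line 1 and 1 without wild-type line 1. The share of all genes called in those 8-line fits is not given, so these calls cannot be set against it. In Cdk8-ko lines and for the interaction it gave 0. Total-count scaling moved the share of all genes higher with Senexin B in wild-type lines from 52.9% to 38.4%, and over the 8 lines from 51.3% to 39.2%.

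For named members the threshold was an adjusted p of 0.05 with any fold. Of 629 alternative values, 610 kept direction and side of this threshold, 11 passed it and 8 changed sign. The adjusted p-values of these members in the main edgeR fits were 0.889 or higher. Ern1 between genotypes with Senexin B ran from -0.014 (without Cdk8-ko Senexin B replicate 1) to 0.99 (without replicate 4). In Cdk8-ko lines, the Senexin B effect on Derl3 ran from -0.34 to 1.00 when a library or line was left out, with -0.09 without Senexin B replicate 4 and -0.34 and -0.12 with the block and without lines 3 and 4. The effect on Wfs1 ran from -2.06 to 0.38, with 0.38 without DMSO replicate 1 and 0.05, 0.13 and 0.18 without Senexin B replicates 2, 3 and 4. The cause was not tested. Pdia5, Wfs1 and Derl3 rest on the fewest reads.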
